A study of Mus musculus with 9 samples.

Results

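The genes described here are 8 genes through which myeloid cells sense purines: the P2Y receptors P2ry12, P2ry13 and P2ry6, the P2X channels P2rx4 and P2rx7, the adenosine receptors Adora3 and Adora2a, and the ectonucleotidase Entpd1. They were taken by name from the 36528 genes of the count tables, and all 8 were present. The RNA came from brain myeloid cells sorted for Cd11b, an integrin chain carried by microglia and other myeloid cells, at 11 to 12 months of age. There were 5 Tau-P301L libraries (2 from females, 3 from males), made from mice transgenic for the P301L mutant of tau. Their wild-type littermates, which lack the transgene, gave 4 libraries (2 from females, 2 from males). The promoter of the transgene is not given in the sources used here. Whether each library is a different mouse is not stated, and the p-values below therefore reflect the spread among these samples alone.

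Cells release ATP and ADP when they are damaged or active, and microglia read these nucleotides as a signal. P2Y receptors are coupled to G proteins, P2X receptors are cation channels opened by ATP, and adenosine receptors sense the nucleoside left once phosphates are removed. Ectonucleotidases on the cell surface carry out that removal, with Entpd1 (CD39) taking ATP and ADP to AMP. In the mouse brain P2ry12 is a marker of resting microglia and steers their processes towards injury, and its loss is a known feature of activated microglia.

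Libraries held 1494727 to 3793606 reads counted in genes, and 3 reads in a library corresponded to 0.791 to 2.01 CPM before scaling (CPM being reads of a gene relative to all reads of its library). Tau-P301L libraries 3 and 5 stood apart, with a mean Spearman's rho to the other 8 of 0.82 each, where the remaining libraries had 0.851 to 0.882. All 10 microglial markers listed were detected, and they summed to 7774 to 13746 CPM in the Tau-P301L group and 9551 to 13459 CPM in the wild-type group. All 10 had lower estimates in Tau-P301L, with a median log2 fold change of -0.28, and 0 of them were called, against 0.00816% of all genes (edgeR). Against 6.35% of all genes, 2 of these markers had an unadjusted p under 0.05 in edgeR. Their part in the values of the purine-sensing genes was not tested. Markers of border macrophages summed to 51.3 to 96.9 CPM in Tau-P301L libraries, against 32.6 to 114 CPM in wild-type ones. Those of monocytes summed to 42.2 to 78.7 CPM in Tau-P301L libraries, against 26.2 to 79.5 CPM in wild-type ones, and 1 of them, Vcan, was higher in every Tau-P301L library than in any wild-type library (log2 fold change 1.10, unadjusted p = 0.0184, adjusted p = 0.733 in edgeR). Neutrophil markers summed to 1.06 to 228 CPM in the Tau-P301L group, against 0.338 to 66.8 CPM in the wild-type group, with the highest value in Tau-P301L library 4. Tau-P301L library 5 had the highest sums of oligodendrocyte (1428 CPM), astrocyte (664 CPM) and endothelial markers (39.5 CPM) of all 9 libraries. The oligodendrocyte sum was 325 to 1428 CPM in Tau-P301L libraries, against 506 to 694 CPM in wild-type ones, while its marker Mbp was lower in every Tau-P301L library than in any wild-type library (log2 fold change -0.95, unadjusted p = 0.00437, adjusted p = 0.593 in edgeR). Vcan and Mbp were named after their values were seen, and 2.48% of all tested genes had groups that did not overlap. Of 6 endothelial markers, Cldn5, a junction protein of brain endothelium, was the only one without reads in any library. The endothelial markers summed to 10.7 to 39.5 CPM in Tau-P301L libraries, against 19.3 to 28.6 CPM in wild-type ones. Of 6 markers of T and NK cells, 4 had no reads in any library, among them Cd3e of T cells. In sorted bulk RNA, fewer cells of a type and less RNA per cell cannot be told apart.

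P2ry12 and P2ry13 lie next to each other on chromosome 3 of GRCm38, at chr3:59216271-59262985 and chr3:59207892-59210882 in RefSeq. Both are on the minus strand and lie within Med12l, which is on the plus strand and encodes a relative of the Mediator subunit Med12. In the GENCODE M21 annotation 5389 bases separate them, and Med12l exons cover 9 of the 2546 exonic bases of P2ry12 and 0 of the 2528 of P2ry13. The 250 bases before their RefSeq starts are shown because these are the members of highest level and were low in the same 3 libraries. They are read 5′ to 3′ on the gene's strand, from chr3:59262986-59263235 for P2ry12 and chr3:59210883-59211132 for P2ry13, and capitals mark GAGGAA, a form of the purine-rich core bound by the myeloid factor PU.1.
P2ry12: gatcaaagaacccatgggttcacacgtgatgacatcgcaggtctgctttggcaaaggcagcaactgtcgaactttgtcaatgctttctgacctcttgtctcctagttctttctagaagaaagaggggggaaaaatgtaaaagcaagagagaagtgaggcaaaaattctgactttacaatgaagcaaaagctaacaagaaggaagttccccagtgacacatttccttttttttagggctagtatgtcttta
P2ry13: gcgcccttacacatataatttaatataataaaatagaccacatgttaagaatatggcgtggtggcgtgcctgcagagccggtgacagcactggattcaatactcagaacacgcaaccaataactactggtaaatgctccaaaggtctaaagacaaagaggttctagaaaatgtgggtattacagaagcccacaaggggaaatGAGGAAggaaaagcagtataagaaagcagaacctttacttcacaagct
The motif was searched on both strands and occurred 1 time before P2ry13 and 0 times before P2ry12, against 23.3% of 32851 promoter windows of the same length with at least 1. An interferon-type motif (GAAA, any 2 bases, GAAA) and TATAAA, the TATA box, were found in neither window, against 2.98% and 12.4% of all windows. Each motif was counted separately, so overlapping matches would count for both. The 50 bases after the RefSeq start were found in a GENCODE transcript for P2ry13 but not for P2ry12. The P2ry12 window thus rests on its RefSeq start alone. Of the 8 members, 6 had RefSeq promoter windows. GAGGAA also occurred 1 time before Adora3 and 2 times in the Entpd1 window at chr19:40659520-40659769. It occurred 0 times in the other Entpd1 window and before P2rx4 and P2rx7.

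Per gene length, P2ry12 was the highest member in both genotypes. Its level averaged 125 ± 25.5 RPKM, as scaled by the authors, over the 9 libraries (SD, n = 9). P2ry13, a second ADP receptor of the P2Y family, followed at 55.9 ± 16.5 RPKM and Entpd1 at 32.8 ± 14.2 RPKM. P2ry6, a UDP receptor linked to phagocytosis by microglia, stood at 19.0 ± 3.60 RPKM, and P2rx7, the ATP channel that triggers release of interleukin-1, at 9.40 ± 1.96 RPKM. The lowest levels above the detection limit were those of Adora3, the A3 adenosine receptor, at 5.60 ± 1.64 RPKM and of P2rx4, a channel more sensitive to ATP than P2rx7, at 3.49 ± 1.05 RPKM. Every step of this order held within each of the 9 libraries except that from Adora3 to P2rx4, which held in 8 and was within their spread. The ratio of P2ry12 to P2ry13 was 1.80 to 2.71 across libraries. The smallest ratios of neighbours that kept their order were 1.01 for P2rx7 over Adora3 and 1.05 for P2ry13 over Entpd1, so these steps were close in some libraries. The order of group means was the same in Tau-P301L and in wild-type libraries. Adora2a, the A2a adenosine receptor, had 0, 1, 0, 0 and 1 reads in Tau-P301L libraries 1 to 5 and 0 reads in each wild-type library. This is below the 3 reads taken as a floor in every library, so no fold change is given.

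**Figure D1:**
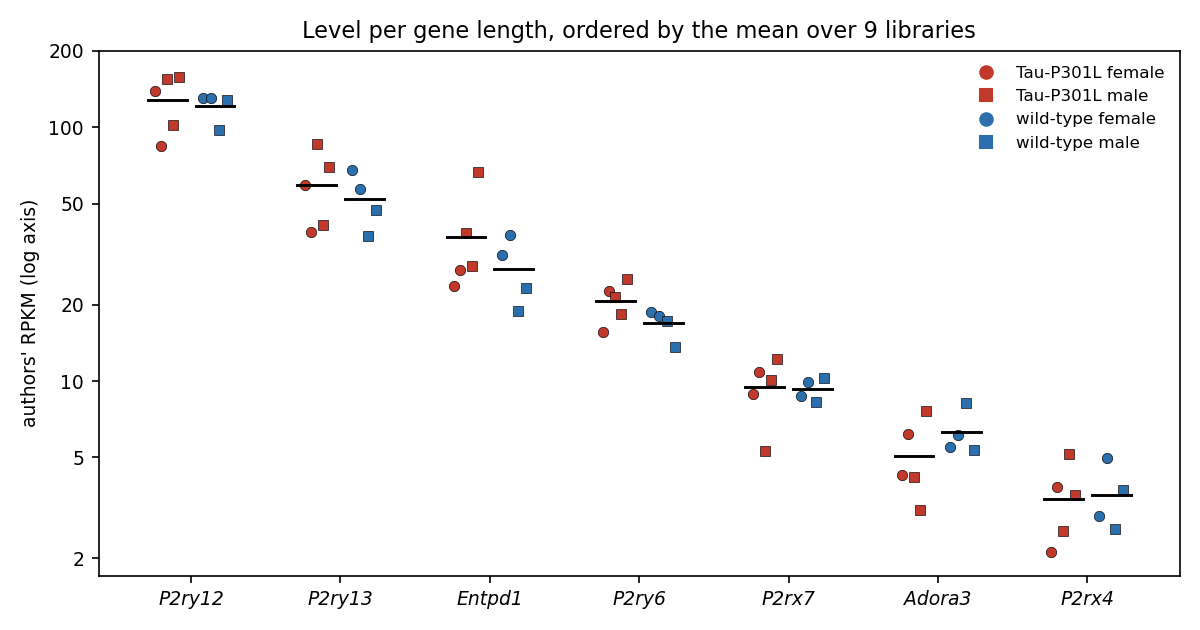
Level of 7 members per gene length (authors' RPKM, log axis), with 1 point per library, circles for females, squares for males and a bar for the group mean. Tau-P301L libraries (red) stand left of wild-type libraries (blue), and P2ry12 at 84.0 to 158 RPKM and P2rx4 at 2.12 to 5.13 RPKM mark the ends of the order. Adora2a is left out because it is listed at 0 in 7 libraries.

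The main comparison asked how these genes differ between brain myeloid cells of mice with mutant tau and of their littermates. No member passed the threshold. P2ry12 and P2rx7 had estimates closest to 0, Entpd1 and P2ry6 the highest and Adora3 the lowest, and the groups overlapped for all 8 members. Log2 fold changes of Tau-P301L over wild-type ran between -0.32 and 0.36. Of 12250 genes that passed the low-count filter 0.00816% were called at an adjusted p of 0.05 (edgeR quasi-likelihood test with sex in the model), and of the 7 members tested 0 were called. At an unadjusted p of 0.05 the counts were 0 of 7 members and 6.35% of all genes, 3.56% with higher and 2.79% with lower estimates. The ranges of the groups did not overlap for 0 of 7 members and for 2.48% of all genes, of which Tau-P301L was higher for 1.31% and lower for 1.18%. DESeq2 and limma-voom also called 0 members. The median log2 fold change of the 7 members was 0.04, beside -0.00073 over all genes. Adora2a did not pass the filter.

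Among the P2Y receptors, P2ry12 stood at 1487, 902, 1589, 1068 and 1635 CPM in Tau-P301L libraries 1 to 5, against 1396, 1374, 1021 and 1374 CPM in wild-type libraries 1 to 4. Tau-P301L libraries lay on both sides of the wild-type range, with 3 above it and 1 below it. Tau-P301L libraries averaged 1336 ± 330.4 CPM (SD, n = 5) and wild-type ones 1291 ± 181 CPM (SD, n = 4). The log2 fold change was 0.04 (SE 0.23, 95% interval -0.45 to 0.53, edgeR adjusted p = 0.981). Libraries 3 and 5, which stood apart in overall profile, were the highest of the Tau-P301L group, and without both of them the log2 fold change was -0.20.

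P2ry13 stood at 615, 406, 864, 423 and 707 CPM in Tau-P301L libraries 1 to 5, against 708, 587, 381 and 496 CPM in wild-type libraries 1 to 4. The groups overlapped over most of their range, and Tau-P301L library 3 alone lay above the wild-type libraries. The log2 fold change was 0.17 (SE 0.27, 95% interval -0.39 to 0.72, edgeR adjusted p = 0.933), and -0.23 without Tau-P301L libraries 3 and 5. P2ry6 stood at 134, 197, 179, 156 and 212 CPM in Tau-P301L libraries 1 to 5, against 162, 155, 146 and 118 CPM in wild-type libraries 1 to 4. Tau-P301L libraries 2, 3 and 5 exceeded the wild-type maximum, and none was under the wild-type minimum. Its log2 fold change was 0.28 (SE 0.23, 95% interval -0.21 to 0.77, edgeR adjusted p = 0.849), and 0.13 without Tau-P301L libraries 3 and 5 and 0.17 without wild-type library 4.

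Of the P2X channels, P2rx7 stood at 203, 249, 116, 227 and 271 CPM in Tau-P301L libraries 1 to 5, against 199, 223, 184 and 235 CPM in wild-type libraries 1 to 4. Tau-P301L library 3 was the lowest and library 5 the highest of all 9, so that the Tau-P301L group spread over 27.97% of its mean (coefficient of variation) and the wild-type group over 10.98%. The log2 fold change was 0.03 (SE 0.25, 95% interval -0.49 to 0.54, edgeR adjusted p = 0.989). P2rx4 stood at 18.0, 32.6, 20.9, 42.8 and 29.1 CPM in Tau-P301L libraries 1 to 5, against 24.9, 41.6, 21.6 and 31.6 CPM in wild-type libraries 1 to 4. These values rest on 42 to 123 reads each, and the highest and the lowest were both in the Tau-P301L group. Its log2 fold change was -0.07 (SE 0.37, 95% interval -0.84 to 0.70, edgeR adjusted p = 0.981). Without Tau-P301L libraries 3 and 5 the values were 0.10 for P2rx7 and 0.05 for P2rx4. P2rx7 and P2rx4 are neighbours on chromosome 5. The read ratio of P2rx4 to P2rx7 was 0.139 ± 0.0439 in the Tau-P301L group (SD, n = 5) against 0.141 ± 0.0309 in the wild-type group (SD, n = 4), with a two-sided exact permutation p of 0.825 (also 0.825 after adjustment over 3 ratios). Across libraries it ran from 0.0884 to 0.188 in Tau-P301L and from 0.118 to 0.186 in wild-type, so no difference was shown, and a constant ratio was not shown either.

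Adora3, which couples to inhibitory G proteins as P2ry12 does, stood at 78.1, 114, 73.8, 56.0 and 136 CPM in Tau-P301L libraries 1 to 5. Wild-type libraries 1 to 4 had 101, 111, 146 and 98.6 CPM. Tau-P301L libraries 1, 3 and 4 lay below every wild-type library, and libraries 2 and 5 within their range. The log2 fold change was -0.32 (SE 0.28, 95% interval -0.91 to 0.26, edgeR adjusted p = 0.858), and -0.51 without Tau-P301L libraries 3 and 5. Without Tau-P301L library 5 alone it was -0.52, without Tau-P301L library 4 it was -0.18, without wild-type library 3 it was -0.16, and in females alone it was -0.15. Of the 3729 exonic bases of Adora3 in GENCODE M21, 779 are shared with Tmigd3 on the same strand, so reads there cannot be assigned to either gene by position, and Tmigd3 was not analysed here.

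Entpd1 stood at 474, 551, 739, 561 and 1291 CPM in Tau-P301L libraries 1 to 5, against 627, 742, 371 and 467 CPM in wild-type libraries 1 to 4. Library 5 of the Tau-P301L group alone lay above the wild-type libraries, and the other 4 lay within their range. Tau-P301L libraries averaged 723 ± 332 CPM (SD, n = 5) and wild-type ones 552 ± 165 CPM (SD, n = 4), with a log2 fold change of 0.36 (SE 0.31, 95% interval -0.28 to 1.01, edgeR adjusted p = 0.850). Without Tau-P301L library 5 it was 0.11, without wild-type library 3 it was 0.09, and without Tau-P301L libraries 3 and 5 it was -0.07. Tau-P301L library 5 also had the highest sums of oligodendrocyte, astrocyte and endothelial markers, and their part in the Entpd1 value was not tested. Entpd1 was the most variable member: its coefficient of variation over 9 libraries was 41.9%, against a median of 22.8% over 163 tested genes of like level (within 0.5 log2 units). For P2ry12 the values were 19.7% and 24.3%.

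**Figure D2:**
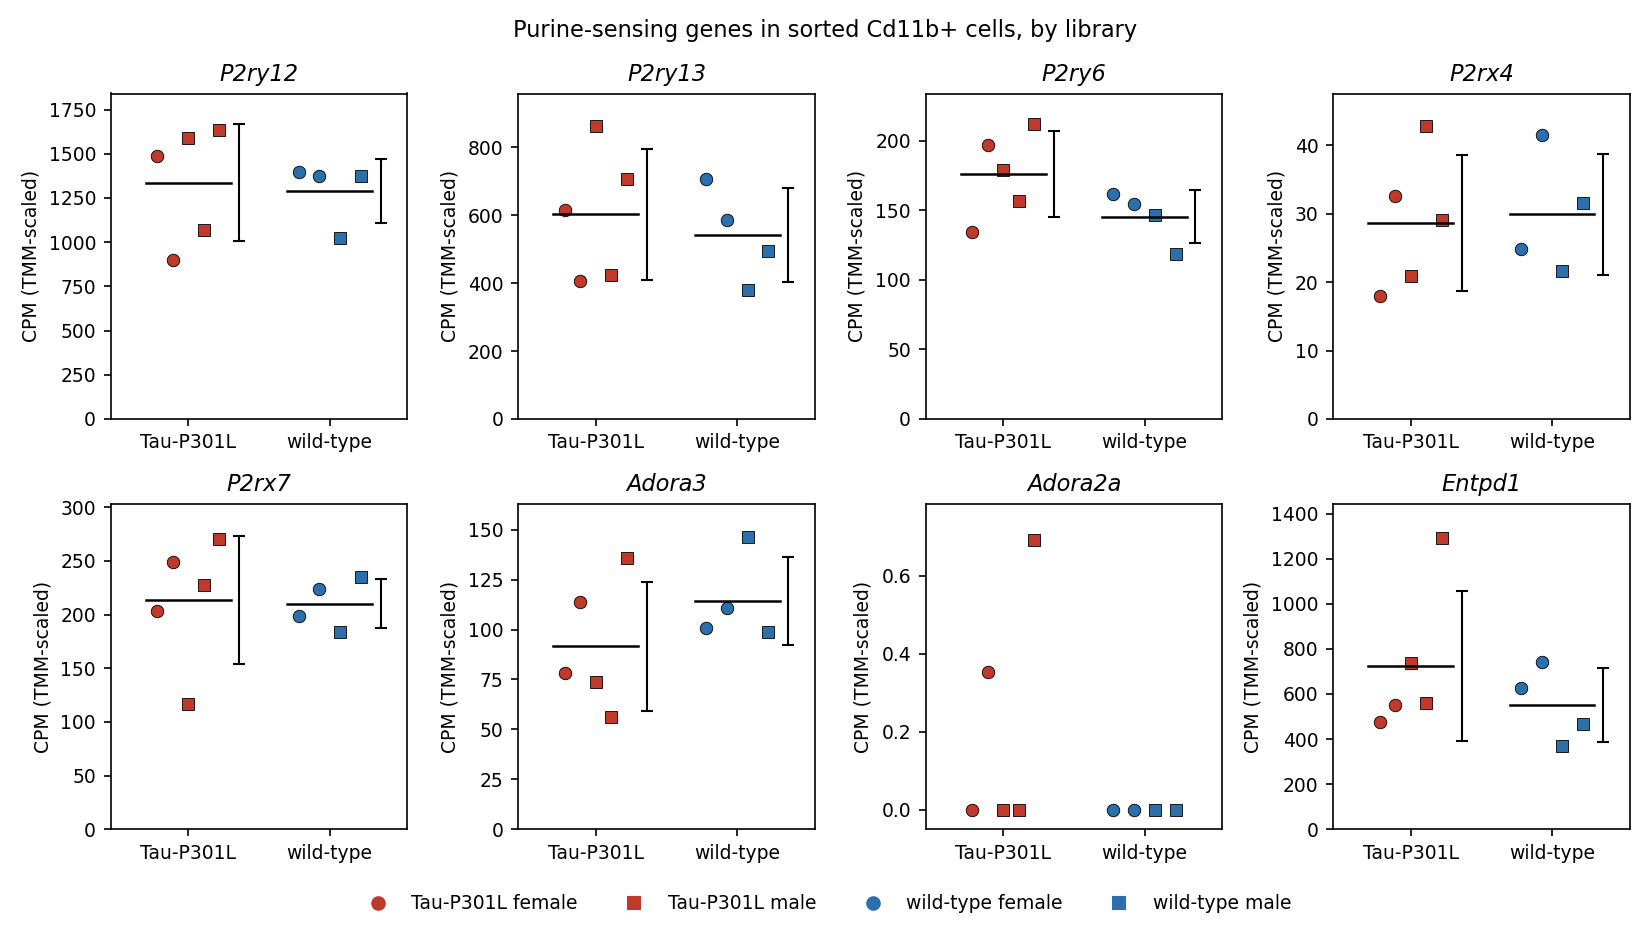
Level of each of the 8 members in CPM after TMM scaling, with 1 point per library, Tau-P301L (red) left of wild-type (blue), circles for females and squares for males, horizontal bars for group means and vertical bars for the SD. The groups overlap in every panel. The SD is larger in the Tau-P301L group for each member with an SD drawn, among them P2ry12 (902 to 1635 CPM) and P2rx7 (116 to 271 CPM). The share of all genes with a larger SD in Tau-P301L was not computed. Adora2a rests on 2 reads in all, so no mean or SD is drawn.

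No member passed the threshold between the sexes. Male over female log2 differences, over both genotypes, ran between -0.08 for P2rx7 and 0.07 for Entpd1, with 0 of 7 members called, against 0.049% of all genes, 0.0327% higher and 0.0163% lower (edgeR, smallest unadjusted p of a member 0.739). For P2ry12 the value was 0.04 (SE 0.23, 95% interval -0.44 to 0.53). The 3 neutrophil markers tested were all higher in males (median log2 difference 4.37, 0 called, 2 at an unadjusted p under 0.05 in edgeR), and their part in these values was not tested. At an unadjusted p of 0.05, 0 members were counted and 2.43% of all genes, 1.38% higher and 1.05% lower, and DESeq2 and limma-voom called 0 members. These are averages over both genotypes, within which the means of some members differed in opposite directions. P2ry13 averaged 665 CPM in males and 511 CPM in females of the Tau-P301L group, against 438 CPM in males and 648 CPM in females of the wild-type group. For P2ry13, Tau-P301L males (864, 423 and 707 CPM) and females (615 and 406 CPM) overlapped. Wild-type males (381 and 496 CPM) and females (708 and 587 CPM) did not, with only 2 libraries per sex. The share of all genes without overlap between 2 and 2 libraries was not computed. For Entpd1 the averages were 864 CPM in males and 512 CPM in females of the Tau-P301L group, against 419 CPM in males and 685 CPM in females of the wild-type group. Without Tau-P301L libraries 3 and 5, both male, the sex value was -0.45 for P2ry13 and -0.36 for Entpd1.

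The genotype difference of Entpd1 pointed opposite ways in females and males. In females, the Tau-P301L libraries had 474 and 551 CPM and the wild-type libraries 627 and 742 CPM. In males, the Tau-P301L libraries had 739, 561 and 1291 CPM and the wild-type libraries 371 and 467 CPM. Within each sex the groups did not overlap, lower in Tau-P301L females and higher in Tau-P301L males, a pattern that 1.27% of the 12250 tested genes showed in this orientation and 1.81% in the other. The interaction, the log2 fold change in males minus that in females, was 1.46 (SE 0.50, 95% interval 0.42 to 2.50). Its unadjusted p was 0.00844 and its adjusted p was 1 over 13302 genes (edgeR), so it did not pass. With 1 library left out at a time it stayed between 1.06 (without Tau-P301L library 5) and 1.70 (without Tau-P301L library 4). Without Tau-P301L libraries 3 and 5, which leaves 1 Tau-P301L male, it was 0.84.

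**Figure D3:**
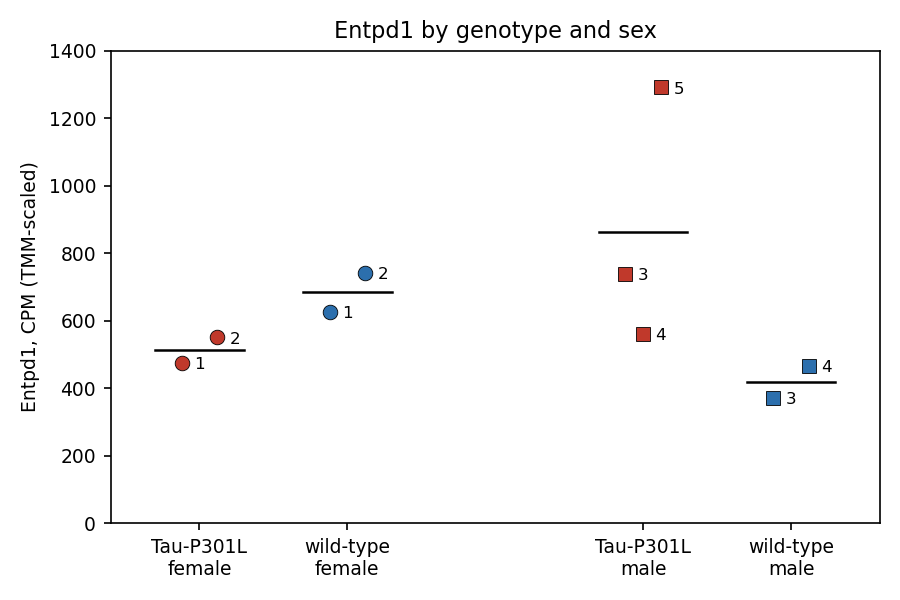
Entpd1 in CPM after TMM scaling by genotype and sex, with 1 numbered point per library, Tau-P301L left of wild-type within each sex, and bars for means. Tau-P301L females (474 and 551 CPM) lie below wild-type females (627 and 742 CPM), and Tau-P301L males (561 to 1291 CPM) lie above wild-type males (371 and 467 CPM).

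For the other members the estimated interaction on all 9 libraries was nearer to 0. P2ry13 had 0.94 (SE 0.50, unadjusted p = 0.0713 and adjusted p = 1 in edgeR), P2rx4 0.61 (SE 0.75), P2ry12 0.47 (SE 0.47) and P2ry6 0.40 (SE 0.48). Those of P2rx7 and Adora3 were -0.13 (SE 0.52) and -0.34 (SE 0.58). Single libraries moved these values by more than 1.5 times, except that of P2ry13. With 1 library left out, the lowest and highest were 0.14 (without Tau-P301L library 2) and 0.87 (without Tau-P301L library 1) for P2ry12, and 0.21 (without wild-type library 2) and 1.10 (without Tau-P301L library 2) for P2rx4. For P2ry6 they were 0.14 (without Tau-P301L library 1) and 0.68 (without Tau-P301L library 2), and for Adora3 -0.77 (without Tau-P301L library 5) and -0.035 (without wild-type library 3). P2ry13 stayed between 0.66 and 1.27. Without Tau-P301L libraries 3 and 5, where Entpd1 had 0.84, P2rx4 had 1.1 and Adora3 -0.98, so the order of the members was not kept. In all, 0 of 7 members passed after adjustment, as did 0% of all genes, and 1 member, Entpd1, was under an unadjusted p of 0.05, as were 3.95% of all genes, 2.35% with positive and 1.61% with negative values. DESeq2 and limma-voom called 0 members.

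P2ry12 and P2ry13 were low in the same libraries. P2ry12 fell into 2 sets with a gap between them: the Tau-P301L libraries numbered 2 and 4, together with wild-type library 3, had 902 to 1068 CPM, and the other 6 libraries had 1374 to 1635 CPM. P2ry13 had 381 to 423 CPM in those 3 libraries and 496 to 864 CPM in the other 6. Of the low libraries, Tau-P301L library 4 and wild-type library 3 had the highest neutrophil marker sums of their groups, and Tau-P301L library 2 did not. The part of cell composition in this split was not tested. Over all 9 libraries the pair had the lowest p of the 21 member pairs computed (Pearson's r = 0.90, exact permutation p = 0.00104, adjusted p = 0.0218; Spearman's rho = 0.88, exact permutation p = 0.00308, adjusted p = 0.0647), and r was 0.85 without Tau-P301L library 2 and wild-type library 3. Pearson's r passed after adjustment and Spearman's rho did not, and both span the gap between the sets. Within the 6 upper libraries Pearson's r was 0.70 (exact permutation p = 0.119) and Spearman's rho 0.66 (exact permutation p = 0.175), and r was 0.32 without Tau-P301L libraries 3 and 5, so a relation within them was not shown at this sample size. The read ratio of P2ry13 to P2ry12 was 0.447 ± 0.0576 in the Tau-P301L group (SD, n = 5) against 0.417 ± 0.0665 in the wild-type group (SD, n = 4), with a two-sided exact permutation p of 0.46 (0.69 after adjustment over 3 ratios). The ratio of Entpd1 to P2ry12 was 0.542 ± 0.175 in the Tau-P301L group against 0.423 ± 0.0913 in the wild-type group (exact permutation p = 0.302, adjusted p = 0.69). The smallest p these group sizes allow is 0.00794.

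**Figure D4:**
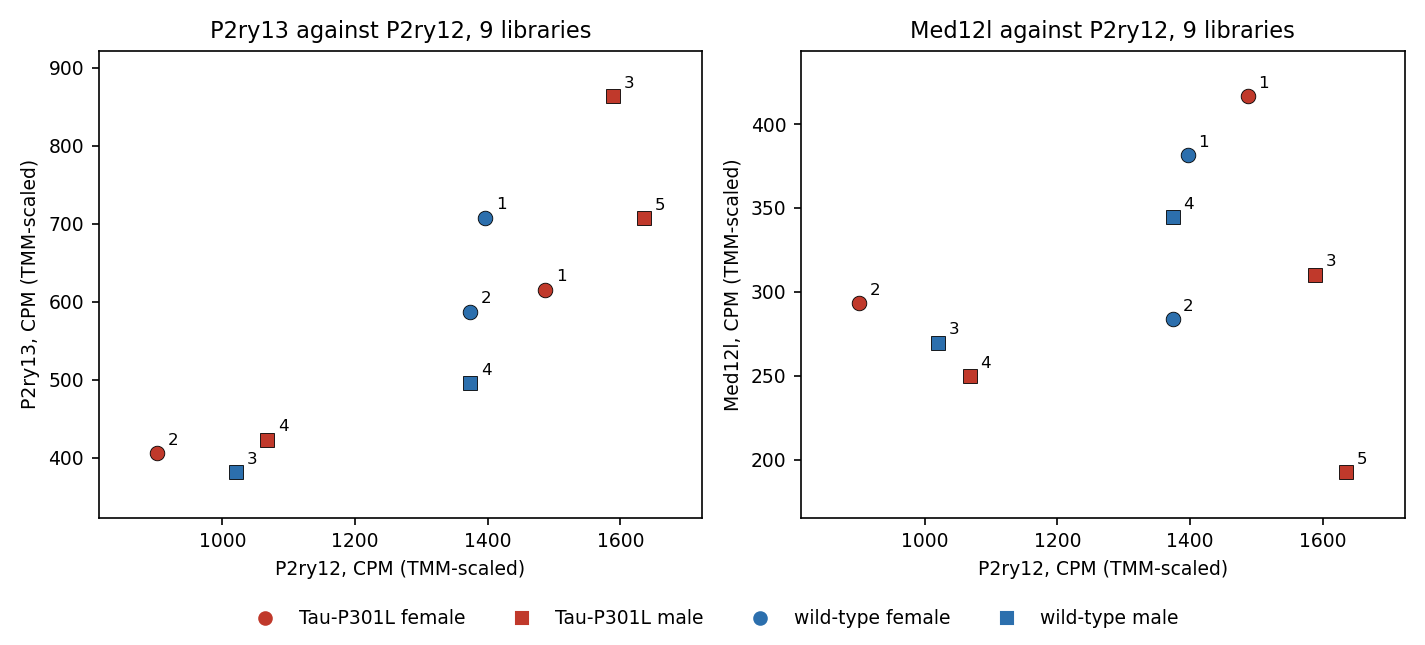
P2ry13 (left) and Med12l (right) against P2ry12, all in CPM after TMM scaling, with 1 numbered point per library, Tau-P301L in red and wild-type in blue, circles for females and squares for males. The 3 libraries with P2ry12 at 902 to 1068 CPM are also the lowest 3 for P2ry13 (381 to 423 CPM). For Med12l, Tau-P301L library 5 is lowest (192 CPM), followed by Tau-P301L library 4 (249.7 CPM) and wild-type library 3 (269.7 CPM).

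The likeness of other genes to P2ry12 was described by Pearson's r of log2 CPM over the 9 libraries, among 7727 other tested genes with a mean of at least 10 CPM. The gap in P2ry12 described above is part of every such value. The 5 most alike genes were Glrx2, a mitochondrial glutaredoxin (r = 0.98), Dynlt3, a dynein light chain (0.97), Itm2b, a membrane protein mutated in familial dementias (0.96), Prickle2, a planar cell polarity gene (0.95), and Il13ra1, an interleukin-13 receptor chain (0.94). These 5 are the highest of many, which raises their r by selection. Among all these genes the median r was 0.01 and the 95th percentile 0.69. P2ry13 ranked 21 with 0.90 and Entpd1 826 with 0.58, while P2ry6 ranked 3993 with -0.01. Med12l, the gene that encloses P2ry12 on the other strand, ranked 3427 with 0.10, and had 192 to 417 CPM in the Tau-P301L group against 269.7 to 381 CPM in the wild-type group. Among pairs of members without P2ry12, the highest r was that of P2ry6 and Entpd1 (Pearson's r = 0.71, exact permutation p = 0.03, adjusted p = 0.315 over 21 pairs; Spearman's rho = 0.68, exact permutation p = 0.0503, adjusted p = 0.466). It was 0.45 without Tau-P301L library 5 and wild-type library 4 and did not pass. The lowest was that of P2ry13 and P2rx7 (Pearson's r = -0.44, exact permutation p = 0.237, adjusted p = 0.83; Spearman's rho = -0.27, exact permutation p = 0.493, adjusted p = 0.796), at -0.23 without Tau-P301L library 3 and wild-type library 3.

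The wider set of purinergic genes likewise gave no call for genotype. Of 65 listed genes other than the members 36 passed the low-count filter, 16 with higher and 20 with lower estimates in Tau-P301L. Of these 36, 0 were called at an adjusted p of 0.05, against 0.00816% of all genes, and 0 had an unadjusted p under 0.05, against 6.35% (edgeR). DESeq2 and limma-voom also called 0 of these genes. Their median log2 fold change was -0.06, beside -0.00073 over all genes.

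By role, receptors other than the members were scarce. Adora1, the A1 adenosine receptor that inhibits adenylyl cyclase, was the 1 of 7 other P2Y and adenosine receptors that was tested, with 11.1 ± 8.68 CPM in the Tau-P301L group (SD, n = 5) against 15.7 ± 8.31 CPM in the wild-type group (SD, n = 4; log2 fold change -0.55, SE 0.54, edgeR adjusted p = 0.869). None of 5 other P2X channels passed the filter. Of 18 other ectonucleotidases and related enzymes 8 were tested, 3 with higher and 5 with lower estimates. Entpd6, an intracellular and secreted relative of Entpd1, had 13, 14, 2, 3 and 0 reads in Tau-P301L libraries 1 to 5 and 16, 14, 18 and 27 reads in wild-type libraries 1 to 4 (log2 fold change -1.61, SE 0.82, edgeR adjusted p = 0.776). The 3 Tau-P301L male libraries had the fewest reads, and at such counts the size of the fold is loose. Enpp1, which splits ATP into AMP and pyrophosphate, had 13.5 ± 6.19 CPM in the Tau-P301L group against 6.91 ± 1.69 CPM in the wild-type group (SD; log2 fold change 0.93, SE 0.51, edgeR adjusted p = 0.789).

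Of 11 genes for ATP release and nucleoside transport 5 were tested, 1 with a higher and 4 with lower estimates. Lrrc8a, the essential subunit of volume-regulated anion channels, had 68.7, 121, 173, 96.7 and 139.9 CPM in Tau-P301L libraries 1 to 5, against 183, 179, 242 and 96.4 CPM in wild-type libraries 1 to 4. The other 3 wild-type libraries lay above every Tau-P301L library. Wild-type library 4 had the lowest wild-type value and lay below 4 of the 5 Tau-P301L libraries and above library 1 (log2 fold change -0.59, SE 0.30, edgeR adjusted p = 0.776). Slc29a1, an equilibrative nucleoside transporter of the plasma membrane, had a log2 fold change of -0.61 (SE 0.43, edgeR adjusted p = 0.821). Of 10 intracellular enzymes and relatives 8 were tested, 4 in each direction, with Ahcyl1, a relative of the enzyme that releases adenosine from S-adenosylhomocysteine, at 0.41 (SE 0.33) and Ampd3, an AMP deaminase, at -0.45 (SE 0.41). All 14 signalling partners were tested, 8 with higher and 6 with lower estimates. Gnai2, an inhibitory G protein subunit of the kind P2ry12 couples to, had -0.44 (SE 0.27, edgeR adjusted p = 0.789), and Gna11, a subunit of the Gq family used by P2ry6, had -0.75 (SE 0.43, edgeR adjusted p = 0.789).

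**Figure D5:**
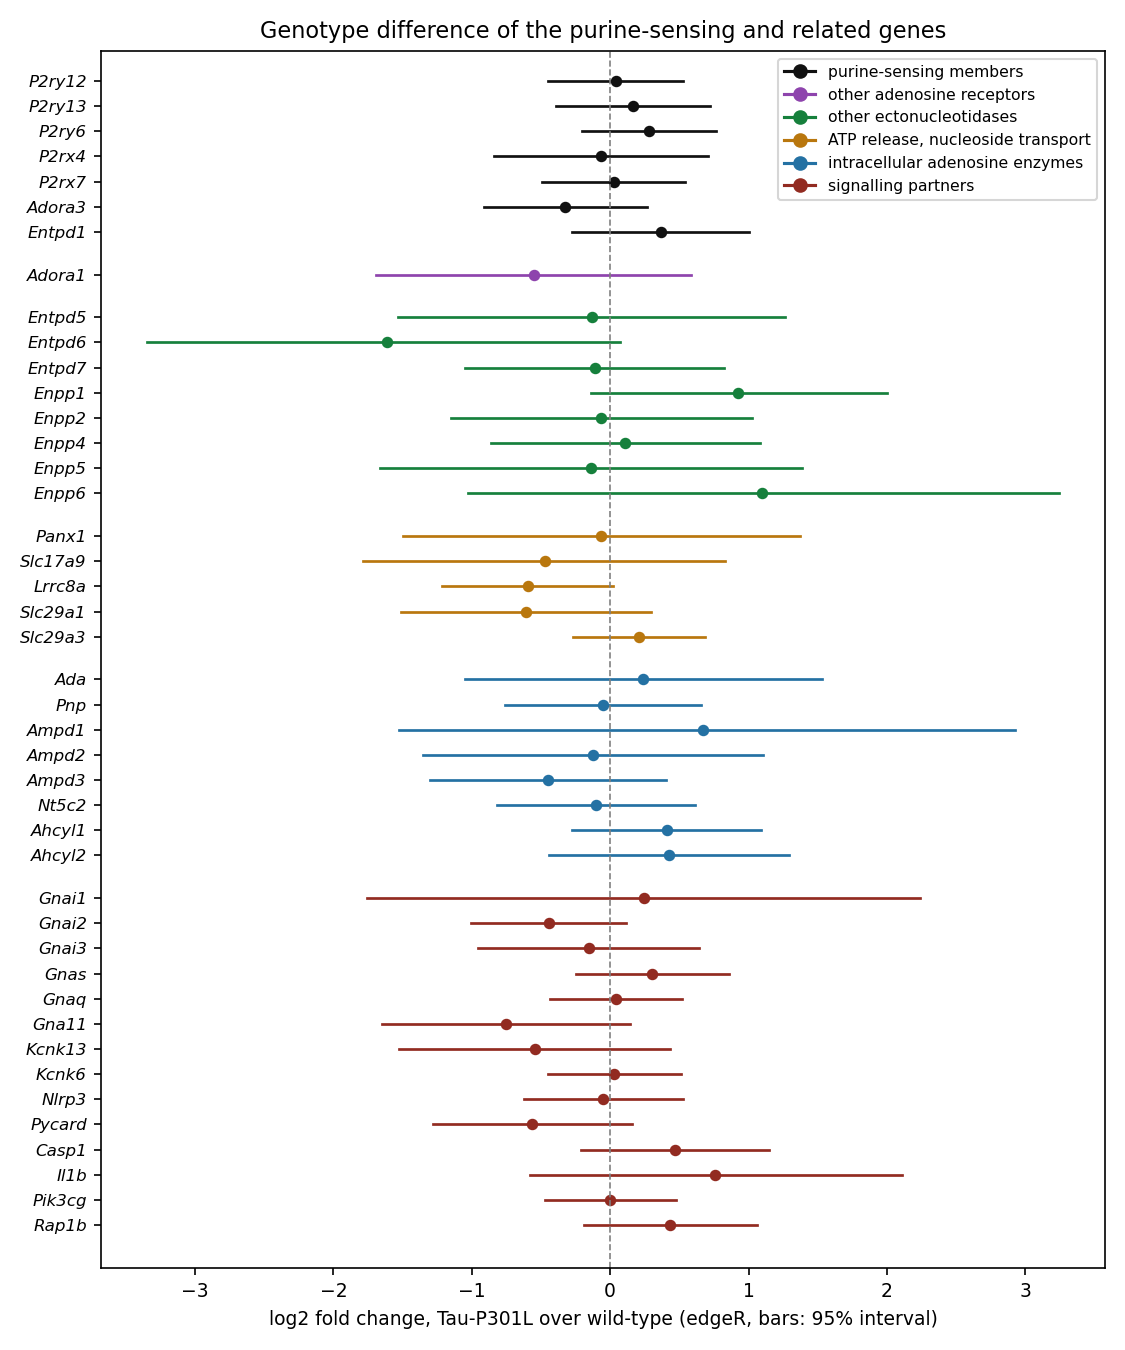
Log2 fold change of Tau-P301L over wild-type (edgeR, with sex in the model) for the 7 tested members and 36 other tested purinergic genes, with points for estimates and bars for 95% intervals, grouped by role. Every interval includes 0, as for P2ry12 at -0.45 to 0.53, and P2rx4 has the widest of the members at -0.84 to 0.70.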

How the data were processed

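The 9 files each covered 1 library and listed genes by Entrez number. In each file 1 column holds the deposited counts, uniquely aligned reads per gene model, and another RPKM that the authors adjusted with 1 size factor per sample, both per the file headers. Reads were aligned with GSNAP to GRCm38, per the submitters' processing notes. Versions, annotation and use of strand were not stated there, so overlapping and antisense genes may share reads. RPKM was used only to order levels between genes.

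Symbols came from RefSeq (GRCm38.p6) for 31049 of 36528 gene numbers. Tests used edgeR 4.0.16 in R 4.3.3 (quasi-likelihood F test, robust, TMM scaling, default low-count filter, Benjamini-Hochberg at 0.05) on all 9 libraries with genotype and sex as additive terms (6 residual degrees of freedom), or with their product for the interaction (5). Standard errors and 95% intervals come from the F statistic, and cover no uncertainty in scaling. CPM are TMM-scaled, and log2 CPM have a prior count of 2. The members, gene lists and tests were chosen with earlier results of these data known. The text names all members, from each other list the called genes or else the 2 of smallest p, genes that overlap or adjoin a member, the 5 genes most like P2ry12 by r, and the member pairs of highest and lowest r. Read ratios, the split of P2ry12 into sets and the Entpd1 pattern were chosen after values were seen. The floor of 3 reads covers counting error only. Only the genotype test was tried on simulated counts, which held no outlying libraries. The interaction, read ratios and correlations were not tried in this way. The alternatives were DESeq2 1.42.0, limma 3.58.1 (voom), RLE scaling, the authors' size factors, no low-count filter, no sex term, each sex alone, and libraries left out. DESeq2 was run without the low-count filter.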

Additional observations from a re-analysis of the deposited data

Results flagged for a closer look

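In the wild-type group P2ry12 in library 3, at 1021 CPM, lay far below the other 3 libraries, which had 1374 to 1396 CPM. The gap was 0.94 of the group's range after TMM scaling, and unscaled reads were not examined. Each member and group with more than 3 reads in all was examined in this way, 14 in all. The limit for a gap in a group of 4 is one that chance passes in about 1 in 20 groups. Without this library the log2 fold change of P2ry12 between Tau-P301L and wild-type was -0.10.

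Entpd1 was lower in both Tau-P301L females than in both wild-type females and higher in all 3 Tau-P301L males than in both wild-type males. Among all 12250 tested genes 1.27% showed this pattern and 1.81% the opposite one. The test of the difference between the sexes gave a log2 interaction of 1.46 for Entpd1 (SE 0.50), with an unadjusted p of 0.00844 and an adjusted p of 1 in edgeR, so it did not pass the threshold.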

How the results depend on the processing

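Under 18 alternatives 0 members and 0 other purinergic genes were called for genotype, and under 15 alternatives 0 members were called for sex or for the interaction. Of 336 member values 55 had the opposite sign to the reported ones, and the smallest adjusted p of a member was 0.567. Over all genes the 1 call for genotype among 12250 genes became 20 with DESeq2 and 26 in edgeR without the low-count filter. Both of these left the filter out, with 24666 and 24752 genes tested, so method and filter are not separated for DESeq2. The count was 0 in females alone, in males alone or without Tau-P301L libraries 3 and 5, and 0 to 1 with 1 library left out. The cause was not tested.

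Reversed genotype values were, in females alone, -0.21 for P2ry12, -0.34 for P2ry13 and -0.42 for Entpd1. In males alone they were 0.22 for P2rx4 and -0.029 for P2rx7, which was -0.028 with limma-voom. Without Tau-P301L libraries 3 and 5, P2ry12 had -0.20, P2ry13 -0.23, Entpd1 -0.074 and P2rx4 0.0501 for genotype, P2ry12 had -0.19, Adora3 -0.16 and Entpd1 -0.36 for sex, and P2rx7 had 0.023 for the interaction. The sex value of Adora3 was -0.035 with limma-voom. With 1 library left out, genotype values ran from -0.10 to 0.21 for P2ry12, -0.034 to 0.37 for P2ry13, -0.24 to 0.15 for P2rx4 and -0.091 to 0.18 for P2rx7. Sex values ran from -0.14 to 0.16 for P2ry12, -0.28 to 0.11 for P2ry13, -0.18 to 0.065 for P2ry6, -0.20 to 0.23 for P2rx4, -0.20 to 0.064 for P2rx7, -0.17 to 0.20 for Adora3 and -0.18 to 0.31 for Entpd1. The interaction of P2rx7 ran from -0.38 to 0.15. Where a library left out leaves 1 library in an arm, that library is assumed to vary like the others. The authors' size factors, an alternative chosen after seeing the data, reversed no member value. With DESeq2, over 24747 genes, the median interaction of all genes was 0.11.

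No paired analysis was possible because the labels do not pair Tau-P301L libraries with wild-type ones.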

Other observations

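Several purinergic receptors had too few reads to test. P2ry1, P2ry4 and P2rx2 had no reads in any library. P2ry14, a receptor for UDP-glucose in the same chromosome 3 cluster as P2ry12, had 1, 7, 5, 20 and 1 reads in Tau-P301L libraries 1 to 5 and 0, 1, 1 and 3 reads in wild-type libraries 1 to 4. Its highest count was in Tau-P301L library 4, which also had the highest sum of neutrophil markers (228 CPM). Wild-type library 3, with the highest neutrophil sum of the wild-type group (66.8 CPM), had 1 read of P2ry14. The part of neutrophils in these counts was not tested.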
